A study of Mus musculus with 3 samples.

Results

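The cells described are B cells of mouse blood that carried at least 2 unique molecular identifiers (UMIs, counted mRNA molecules) of Bhlhe41, Nid1 and Ccdc28b together. A B cell was a barcode with at least 200 genes, at most 10% mitochondrial UMIs, at least 3 UMIs of Cd79a and Cd79b, at most 1 UMI of the Cd3 genes, and under 3% of its UMIs from S100a8 and S100a9. The rule found 198 cells among 7726 B cells (2.56%), 18885 cells that passed the filters and 22204 barcodes. The values of the 3 rule genes chose these cells, so their levels in them are a description. The working name of the set was B-1-like Bhlhe41 B cells. Its highest-ranked genes over all 198 cells included monocyte genes, so the cells are called Bhlhe41-set B cells here. This name refers to the rule, and not every cell of the set carried Bhlhe41.

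The study profiled leukocytes of C57/BL6J mice after red cell lysis, with 10x Genomics 3' v3 chemistry. There were 3 groups with 1 library each, namely Con at 0 h, SD24h after 24 h and SD48h after 48 h of sleep deprivation, and each library pooled the leukocytes of 3 mice. The labels give no age, sex or drug treatment of these groups beyond the anaesthetic used at sampling, and the sleep restriction condition that the series text names was not analysed here. The barcodes end in -1, -2 or -3. The labels do not say which group each ending is, so no condition was compared, no order in time was read, and each ending stands on its own. With 1 library a group there is no test of a condition, and no p-value is given.

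B-1 cells are a self-renewing B cell lineage, best known from the body cavities, that makes much of the natural IgM. They are usually recognised by low IgD and low CD23 (Fcer2a) with CD43 (Spn), CD11b (Itgam) and, in the B-1a subset, CD5. Bhlhe41 is a basic helix-loop-helix repressor that also acts in the circadian clock and is known as a regulator of B-1a cells. Nid1 encodes nidogen, a basement membrane protein, and Ccdc28b a coiled-coil protein linked to cilia.

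In the GENCODE annotation of GRCm38, Bhlhe41 (ENSMUSG00000030256) lies at chr6:145858243-145865558 on the minus strand. Nid1 (ENSMUSG00000005397) lies at chr13:13437551-13512269 on the plus strand, and Ccdc28b (ENSMUSG00000028795) at chr4:129619274-129623947 on the minus strand. All 3 are protein-coding genes.

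The E-box CACGTG, which reads the same on both strands, is the core motif that Bhlhe41 and the clock factors are known to bind. It was present in 6.02% of 32851 RefSeq windows of 250 bases before a gene start (GRCm38.p6). The stretches around the motif upstream of Bhlhe41 itself (chr6:145865538-145865603, minus strand) and of the clock gene Per1 (chr11:69098753-69098818, plus strand) are shown because both genes belong to that loop. The capitals mark the motif, which starts 153 and 166 bases before the RefSeq gene start. That start of Bhlhe41 lies inside the GENCODE span given above, so that the motif lies just outside that span and the end of the printed stretch inside it.
Bhlhe41: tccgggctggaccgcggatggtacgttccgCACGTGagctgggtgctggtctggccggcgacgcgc
Per1: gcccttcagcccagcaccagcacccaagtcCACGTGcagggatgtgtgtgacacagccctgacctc
Of 19 listed clock genes, 16 had an entry and 4 had the motif in such a window (Per1, Cry1, Tef and Ciart). The motif is a match of letters and not a measured binding site.

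The endings held 8815, 6648 and 6741 barcodes with 40807434, 30114546 and 36523283 UMIs. Bhlhe41-set B cells were deeper than the other B cells of the same ending. Their median was 7180.5, 7070.5 and 6460 UMIs in endings -1, -2 and -3, against 3968, 3812 and 3602.5. Median mitochondrial shares were 7.65%, 6.40% and 6.75%, against 6.90%, 6.26% and 5.99%. A deeper cell reaches 2 UMIs of the rule genes more easily, so levels below are ratios of summed UMIs, taken relative to all UMIs of the same cells and multiplied by 1000000 (CPM). Where stated, they are also given with the other B cells weighted to the same distribution of UMIs per cell. That weighting leans on the deeper of the other B cells, and no interval was computed for a weighted ratio. Doublet scores among the highest 6% of an ending were held by 8.51%, 8.33% and 7.35% of the set, against 5.89%, 1.81% and 2.16% of the other B cells. Of the 198 barcodes, 1 occurred in another ending too.

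Some of the cells also carried monocyte RNA. Among 10 monocyte markers (Csf1r, Ly6c2, Ccr2, Fn1, F13a1, Cx3cr1, Ms4a6c, Ace, Treml4 and Cd209a), 24 of 198 Bhlhe41-set B cells (12.1%) held 4 UMIs or more, against 96 of 7528 other B cells (1.28%). These were 11, 5 and 8 cells in endings -1, -2 and -3. Their median was 14564 UMIs in total and 88 UMIs of Lyz2, the lysozyme of myeloid cells, against 1 Lyz2 UMI in the rest of the set. Of the 24, 16 had Ccdc28b as their only rule gene, 2 had only Bhlhe41, none had only Nid1 and 6 had at least 2 rule genes. The 10 markers together stood at 846, 996 and 963 CPM in the set and at 178, 220 and 166 CPM in the other B cells. Results are therefore given for the rule as it stands and without all 120 B cells above that limit, a limit chosen after the data were seen.

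In endings -1, -2 and -3 the set held 94, 36 and 68 cells. These were 2.18% of B cells (exact 95% binomial interval 1.77% to 2.67%), 2.54% (1.79% to 3.50%) and 3.39% (2.64% to 4.27%). Of all kept cells they were 1.32%, 0.602% and 1.18%. Intervals cover counting error only, and those for shares of B cells overlap between neighbouring endings, while those of endings -1 and -3 overlap only narrowly. Without the monocyte marker cells the shares were 1.96%, 2.22% and 3.03%. When every B cell was thinned to 2000 UMIs, they were 0.476%, 1.03% and 0.673%, and the highest share moved from ending -3 to ending -2. It also did so under a stricter cell filter (500 genes, 5% mitochondrial UMIs), where 6 of 246, 9 of 219 and 7 of 362 B cells (2.44%, 4.11% and 1.93%) met the rule.

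**Figure D1:**
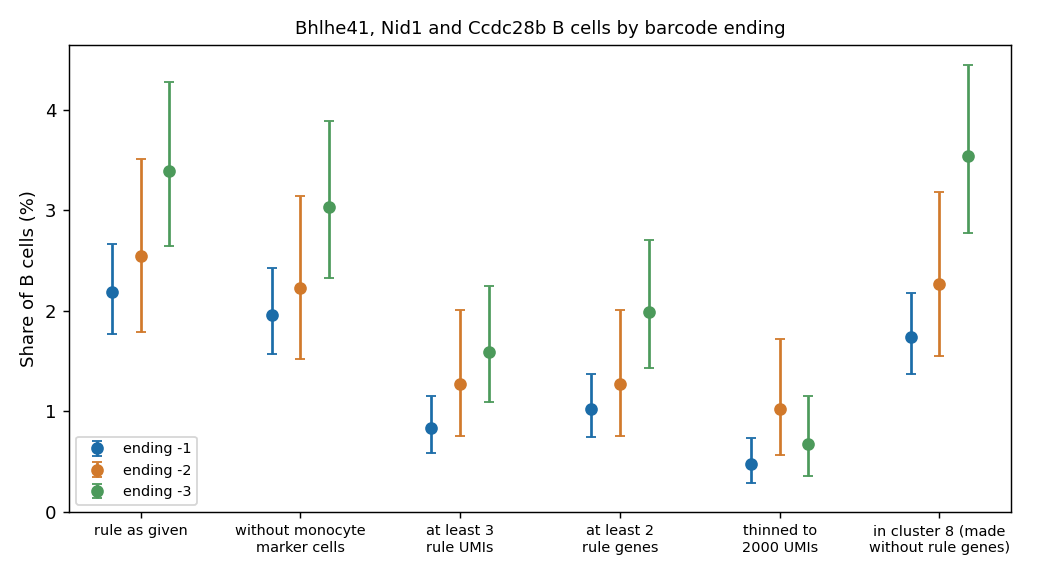
Share of B cells (%, points) with the exact 95% binomial interval (bars) in each barcode ending, for the rule, for 4 changes to it, and for cluster 8. That cluster was made without the rule genes and picked for holding the most cells of the set. Of the 6 choices plotted, the share in ending -3 is the highest in 5, and in the thinned one it is 0.673% against 1.03% in ending -2.

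Bhlhe41 was detected in 108 of the 198 cells, Nid1 in 70 and Ccdc28b in 132. A single rule gene accounted for 96 cells (Ccdc28b 48, Bhlhe41 31, Nid1 17), 2 rule genes for 92 and all 3 for 10. Most cells lay at the threshold: 112 had exactly 2 rule UMIs, 47 had 3, 18 had 4, and 21 had 5 or more, up to 12. By ending, cells with exactly 2 numbered 58, 18 and 36.

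Each rule gene stood higher in B cells that carried another. Each gene was read in cells chosen by another, and with the monocyte marker cells left out. The 3 genes were joined in 1 rule with earlier results of these data known, so their joint presence is a description. In B cells with a Bhlhe41 UMI, Nid1 stood at 29.7, 16.2 and 19.8 CPM in endings -1, -2 and -3, against 5.64, 5.86 and 6.28 CPM in B cells without. The ratios were 5.26 (exact 95% interval 3.20 to 8.33), 2.76 (0.838 to 7.13) and 3.15 (1.42 to 6.32). Only the ending with the fewest cells had an interval that reached 1. Ccdc28b stood at 38.8, 42.0 and 63.4 CPM in B cells with a Bhlhe41 UMI, against 15.1, 19.8 and 21.9 CPM, with ratios of 2.56, 2.12 and 2.89. In B cells with a Nid1 UMI, Bhlhe41 was 5.17, 4.33 and 2.50 times as high as in B cells without. In T cells (932, 470 and 714 cells with median depths of 6073, 6247 and 6268 UMIs), Bhlhe41 had 1 UMI in each ending and Nid1 had 4, 0 and 0. T cells here were barcodes chosen to hold Cd3 UMIs and no Cd79a or Cd79b UMI. Ccdc28b was not B cell specific, with 4.76, 7.84 and 7.84 CPM in T cells.

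Part of the set lay together in a clustering that did not see the rule genes or the immunoglobulin heavy and light chain genes. At Leiden resolution 1, B cells formed 14 clusters, and cluster 8 held 79 of the 198 cells (39.9%) among its own 178 cells (44.4% of the cluster), against 1.58% of B cells outside it. It took 59 of the 102 cells with at least 2 rule genes and 20 of the 96 cells with a single rule gene. Cluster 8 was picked as the cluster that held the most cells of the set. The levels of the rule genes in it follow in part from that choice and are a description. In cluster 8, Bhlhe41 stood at 119.9, 73.6 and 113.8 CPM, against 6.07, 7.96 and 9.12 CPM in the other B cells, so that the ratios were 19.8 (14.2 to 27.2), 9.24 (4.97 to 16.4) and 12.5 (8.55 to 18.1). Nid1 had ratios of 10.5, 15.2 and 16.5, and Ccdc28b of 6.76, 7.64 and 6.27. Cluster 8 was 1.74% (1.37% to 2.18%), 2.26% (1.55% to 3.18%) and 3.54% (2.77% to 4.44%) of B cells. Jchain, the immunoglobulin joining chain, was not left out of the clustering and ranked first among the genes raised in cluster 8. Of the cluster's cells outside the set, 26 of 45, 10 of 17 and 16 of 37 had exactly 1 rule UMI, and 19, 7 and 21 had none. Cluster 8 held 7, 2 and 5 monocyte marker cells.

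The rest of the set was spread. Cluster 4 held 36 of its cells among 847 B cells with a median of 6594 UMIs, 754 of them from ending -1. Cluster 11, with 73 cells and a median of 69 monocyte marker UMIs and 13689 UMIs in all, held 14. Cluster 5, with 741 cells, had Bhlhe41 without Nid1: Bhlhe41 stood at 18.8, 28.3 and 30.2 CPM (36, 13 and 23 UMIs), while Nid1 had 2, 0 and 0 UMIs. It held 17 cells of the set. Bhlhe41 in blood B cells was thus not limited to cells that also carried Nid1. At resolution 0.5 the cells of cluster 8 were part of a larger cluster of 922 cells that held 58.1% of the set.

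**Figure D2:**
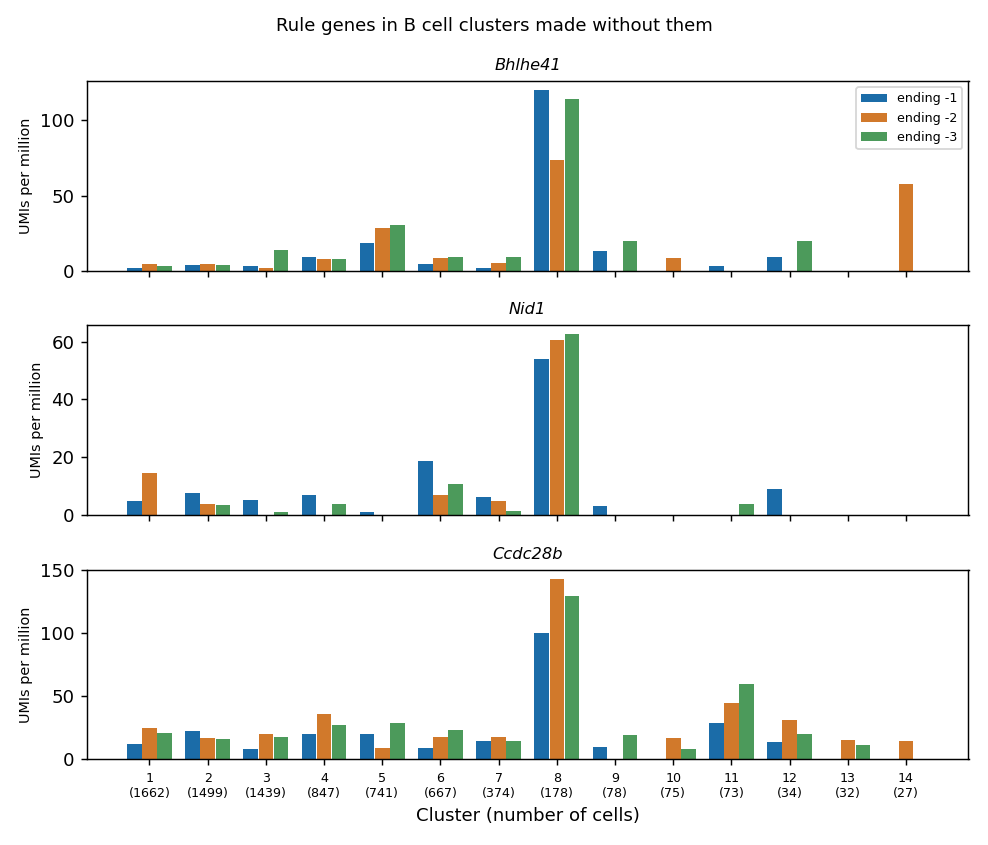
CPM of Bhlhe41, Nid1 and Ccdc28b (bars, linear axes) in each of 14 clusters of B cells made without these genes, for each barcode ending, with the number of cells under each cluster. All 3 genes are highest in cluster 8, in every ending, and cluster 5 carries Bhlhe41 with 2, 0 and 0 UMIs of Nid1. Cluster 8 was picked for holding the most cells of the set.

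Across the transcriptome, a gene was measured when at least 10 UMIs were expected in the set at the level of all B cells, and it was called when its ratio to the other B cells was at least 1.5, or at most 1/1.5, in all 3 endings. Of 8187 genes measured, 195 were higher (2.38%) and 109 were lower (1.33%). TMM scaling, which corrects the totals for genes that take an unequal share, gave 174 higher and 183 lower. The highest-ranked genes included Chil3 (9.48, 20.3 and 6.98 times the other B cells in endings -1, -2 and -3), Ccr2 (5.29, 5.76 and 5.77), Fn1 (5.52, 4.34 and 5.26) and Lyz2 (3.64, 5.98 and 3.66), which are genes of monocytes. All 8 measured genes of the monocyte and dendritic list were higher. Without the monocyte marker cells, 174 cells were compared with 7432, and Lyz2 was at 0.598, 0.888 and 0.755 times the other B cells (0.874, 1.55 and 0.989 after weighting for depth). Of 7666 genes then measured, 67 were higher (0.874%) and 125 lower (1.63%). Of the 195 higher genes, 50 were among these 67 (25.6% of the 195 and 74.6% of the 67). Of the 109 lower genes, 60 were among the 125 (55.0% and 48.0%). With the other B cells also weighted to the same depth, 42 of 7708 measured genes were higher (0.545%) and 131 lower (1.70%), and 29 higher and 72 lower genes were called both ways. All values that follow are without the monocyte marker cells unless stated.

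Several calcium-binding, annexin and cytoskeleton genes were higher in the set. S100a6, which encodes calcyclin, stood at 249, 515 and 515 CPM in endings -1, -2 and -3, against 30.5, 63.9 and 59.0 CPM. The ratios were 8.16 (6.78 to 9.76), 8.07 (6.52 to 9.92) and 8.73 (7.36 to 10.3) and the set was above the other B cells in every ending. The rise differed by rule gene. B cells with a Bhlhe41 UMI had 6.68, 5.65 and 5.02 times the S100a6 of those without, and with a Nid1 UMI 6.73, 8.73 and 4.97 times. With a Ccdc28b UMI the ratios were 0.975 (0.729 to 1.28), 2.83 and 3.51, so that ending -1 showed no rise. S100a6 was also abundant in the neutrophils of the same endings, at 6543, 8619 and 12322 CPM. The summed neutrophil markers of the set were 48.5, 2502 and 796 CPM, against 167, 1257 and 991 CPM in the other B cells, higher in the set in ending -2 alone. S100a6 UMIs came from 27 of 83, 16 of 31 and 30 of 60 cells. Thinned to 3000 UMIs a cell, 27.5%, 37.9% and 42.4% of the set held an S100a6 UMI, against 5.65%, 13.2% and 12.6% of the other B cells. The unthinned shares were 32.5%, 51.6% and 50.0%, against 7.52%, 16.6% and 15.9%. Thinning left out 3, 2 and 1 cells of the set and 434, 222 and 445 of the others. Ahnak, a giant scaffold protein, was 4.84, 5.41 and 5.65 times as high (3.59, 2.99 and 4.10 after weighting), and Vim, the filament protein vimentin, 2.19, 2.57 and 2.12 times. Anxa2, Lgals1 and Crip1 completed 6 higher genes of 22 measured in that list, with none lower, where 0.874% of all measured genes were higher and 1.63% lower. The list's median log2 ratio was 0.33, 0.50 and 0.31, against -0.01, -0.09 and -0.11 over all measured genes. Weighted for depth, the ratios of S100a6 were 7.63, 3.28 and 7.58, while Anxa2 (1.37 in ending -2) and Lgals1 (1.38 in ending -2) no longer passed in all endings. In ending -2 the weighting raised S100a6 in the other B cells from 63.9 to 157 CPM.

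Of 24 listed B-1 genes, 13 were measured, 6 were higher and none lower, against 0.874% higher and 1.63% lower over all measured genes. The list and the rule were chosen with earlier results of these data known, and the count is a description. The 6 were Plac8, Apoe, Zbtb20, Myc, Il5ra and Mzb1. The list's median log2 ratio was 0.89, 0.81 and 1.16. Under the rule as it stands, 14 were measured, 8 were higher (with Spn, Itgam and Ptpn22 in place of Mzb1) and Cd9 was lower. Plac8, a small cysteine-rich protein, stood at 933, 903 and 1415 CPM, against 279, 219 and 269 CPM. Its ratios were 3.34 (3.06 to 3.64), 4.12 (3.55 to 4.76) and 5.26 (4.79 to 5.78), and they were 3.09, 2.73 and 3.44 after weighting. Apoe, the lipid carrier apolipoprotein E, was at 621, 820 and 1066 CPM against 182, 393 and 423 CPM.

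Zbtb20, a zinc finger repressor known to act in plasma and B-1 cells, stood at 281, 272 and 432 CPM in the set and at 138, 126 and 124 CPM in the other B cells. The ratios were 2.04 (1.74 to 2.38), 2.16 (1.65 to 2.78) and 3.49 (2.95 to 4.11). Myc, the growth regulator, was at 21, 86.6 and 70.8 CPM against 11.3, 18.3 and 18.7 CPM. Its ratios of 1.86, 4.74 and 3.78 were 1.60, 1.61 and 2.71 after weighting. Its ratio in ending -1 had an interval of 0.974 to 3.25, on 13 UMIs. Il5ra, the receptor chain for interleukin 5, was 3.00, 1.90 and 2.23 times as high on 25, 6 and 10 UMIs, and its interval in ending -2 ran from 0.674 to 4.34. Mzb1, an endoplasmic reticulum chaperone of innate-like B cells, was 1.61, 1.76 and 1.92 times as high. Over all 198 cells Mzb1 stood at 1.45, 1.57 and 1.67 times the other B cells and was not called. All 3 markers of the working name outside the rule (Zbtb20, Mzb1 and Myc) passed the fold once the monocyte marker cells were left out. That limit was chosen after the data were seen. The markers were named with earlier results of these data known, so their passing is a description. Under the stricter cell filter Mzb1 reversed.

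The set carried the B cell genes that the rule did not use. Ms4a1 (CD20) stood at 1581, 1480.1 and 1597 CPM, 1.23, 1.27 and 1.35 times the other B cells, and Pax5, the transcription factor of B cell identity, was at 1.08, 0.814 and 0.929 times.

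The surface markers of B-1 cells gave a mixed picture. Cd5 had 3, 1 and 3 UMIs in the set, 4.85, 4.12 and 7.58 CPM against 1.45, 0.543 and 0.922 CPM, too few to be measured. Spn (CD43) was 1.26, 3.66 and 3.20 times as high on 8, 9 and 13 UMIs, and 1.04, 2.39 and 2.29 times after weighting. Itgam (CD11b) had 10, 5 and 3 UMIs. Siglecg, an inhibitory lectin that B-1 cells are known to carry, differed little from the other B cells, with ratios of 0.950, 0.904 and 1.13, and so did Tnfrsf13b (TACI), with 1.05, 1.09 and 1.32. Ptpn22, a phosphatase that restrains lymphocyte receptor signalling, was 2.74, 1.48 and 2.88 times as high and missed the fold in ending -2, and Arid3a, a transcription factor of innate-like B cells, was 2.42, 1.38 and 1.65 times as high. After weighting Arid3a stood at 2.19, 0.895 and 1.66 times, below the other B cells in ending -2. Cd9, a tetraspanin of B-1 and marginal zone cells and also of platelets, was at 0.677, 0.609 and 0.598 times the other B cells. It was at 1.01, 1.17 and 0.883 times after weighting for depth. The 5 listed V genes of phosphatidylcholine-binding B-1 cells stood together at 3.23, 0 and 2.53 CPM.

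Several listed B-1 genes were nearly absent from the other B cells and therefore fell under the limit on expected UMIs. Zbtb32, a zinc finger repressor of B cell activation, had 19, 4 and 12 UMIs in the set and 8, 4 and 4 in the other B cells. This was 30.7, 16.5 and 30.3 CPM against 0.431, 0.724 and 0.527 CPM, with ratios of 71.3 (29.8 to 188), 22.8 (4.24 to 122) and 57.5 (17.4 to 245). Weighted for depth, the ratios were 25.6, 6.39 and 19.0. The UMIs came from 12, 3 and 8 cells. Thinned to 3000 UMIs a cell, 3 of 80, 0 of 29 and 3 of 59 cells of the set held one, and the 0 of 29 allows a share of up to 11.9% (exact interval). Cd80, a costimulatory ligand of activated and memory B cells, had 10, 7 and 7 UMIs in the set against 16, 8 and 8, with ratios of 18.8, 19.9 and 16.8 (20.3, 87.5 and 7.67 after weighting). Plscr1, a phospholipid scramblase, was 7.51, 8.95 and 7.67 times as high on 14, 11 and 14 UMIs. Fcrl5, an Fc receptor-like protein of innate-like B cells, was 5.88, 5.70 and 13.2 times as high on 9, 5 and 20 UMIs, and 4.52, 2.16 and 8.14 times after weighting. Ctla4 rested on 1, 2 and 6 UMIs. The limit is passed more easily by genes that the other B cells also express, so the count of measured B-1 genes leaves these out. The other unmeasured genes were Itgam and Cd5, given above, Ahr, Capn5 and Cd300lf, with 9, 6 and 13 UMIs in all, and Tppp3, with none in the 174 cells.

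**Figure D3:**
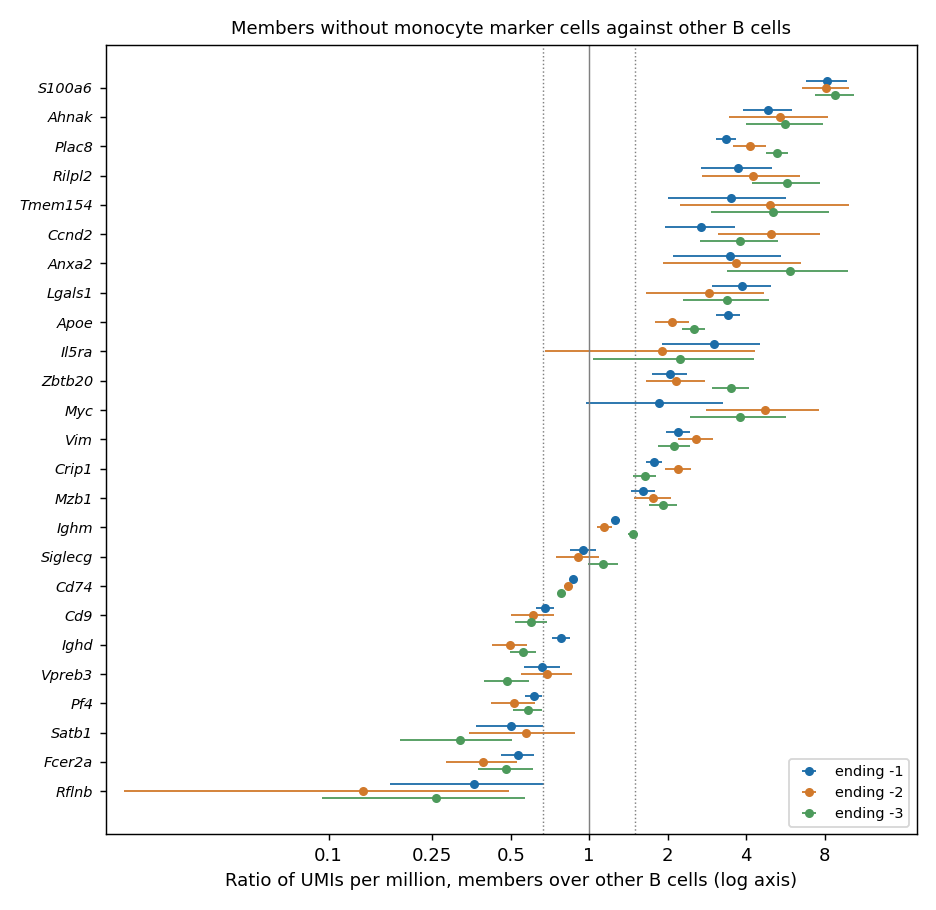
Ratio of CPM in Bhlhe41-set B cells over the other B cells (log axis), without monocyte marker cells, for 25 genes in each barcode ending, with exact 95% intervals for counting error (bars); dotted lines mark 1.5 and 1/1.5. S100a6 lies at 8.07 to 8.73 and Fcer2a at 0.392 to 0.532, while Siglecg lies near 1.

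Of the follicular B cell genes, few passed the fold and all of those were lower. Of 16 measured, 2 were lower (Fcer2a and Satb1) and none higher, against 1.63% lower and 0.874% higher over all measured genes. The list's median log2 ratio was -0.18, -0.41 and -0.42. Fcer2a, the low-affinity IgE receptor CD23, stood at 320, 177 and 182 CPM, against 601, 453 and 378 CPM. The ratios were 0.532 (0.460 to 0.613), 0.392 (0.283 to 0.529) and 0.481 (0.376 to 0.608). Weighted for depth, they were 0.492, 0.392 and 0.511. At 3000 UMIs a cell, 45.0%, 37.9% and 37.3% of the set held an Fcer2a UMI, against 74.3%, 66.2% and 60.7% of the other B cells. The unthinned shares were 61.4%, 58.1% and 43.3% against 80.3%, 72.5% and 67.0%. The 932, 470 and 714 T cells, at median depths of 6073, 6247 and 6268 UMIs, held 23, 0 and 4 Fcer2a UMIs in all. Those T cells were chosen to hold no Cd79a or Cd79b UMI, so they give no level for B cell RNA from outside a cell. The part of such RNA in the shares of the set was not tested. Satb1, a chromatin organiser, was at 0.50, 0.570 and 0.320 times the other B cells, and at 0.809 in ending -2 after weighting. Cr2 (CD21) was at 0.788, 0.311 and 0.593 times and Icosl at 0.742, 0.482 and 0.487 times, so that ending -1 kept both from the call.

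Of 7 measured immunoglobulin constant genes none passed the fold in all 3 endings, against 0.874% higher and 1.63% lower over all measured genes. Their median log2 ratio was 0.33, 0.19 and 0.07. Ighd was at 0.781 (0.722 to 0.844), 0.496 (0.424 to 0.577) and 0.558 (0.496 to 0.626) times the other B cells. Ighm was 1.26, 1.14 and 1.47 times as high, at 4319.9, 3904 and 4872 CPM. Ighm UMIs outnumbered Ighd UMIs in 79 of 83, 28 of 31 and 58 of 60 cells (95.2%, 90.3% and 96.7%), as in most of the other B cells (87.1%, 85.3% and 86.5%). Cells whose IgG, IgA or IgE UMIs outnumbered those of Ighm and Ighd together numbered 2 of 83, 3 of 31 and 1 of 60 in the set. In the other B cells they numbered 3 of 4150, 2 of 1363 and 5 of 1919 (2.41%, 9.68% and 1.67% against 0.0723%, 0.147% and 0.261%). The set was thus mostly unswitched. Cells with more lambda than kappa UMIs made up 20.5% (12.4% to 30.8%), 16.1% (5.45% to 33.7%) and 10.0% (3.76% to 20.5%) of the set, against 9.78%, 10.1% and 7.45% of the other B cells. The interval lay above the other B cells in ending -1 alone. Igha and Jchain gave no common picture: Igha had 94, 8 and 3 UMIs in the set from 5, 5 and 3 cells, and Jchain had 19, 2 and 0. Igha stood at 152, 33.0 and 7.58 CPM, against 6.34, 632 and 13.7 CPM in the other B cells weighted for depth. For Jchain this was 30.7, 8.25 and 0 CPM, against 0.545, 221 and 0.0115 CPM. Both were thus higher in the set in ending -1 and higher in the weighted other B cells in ending -2.

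**Figure D4:**
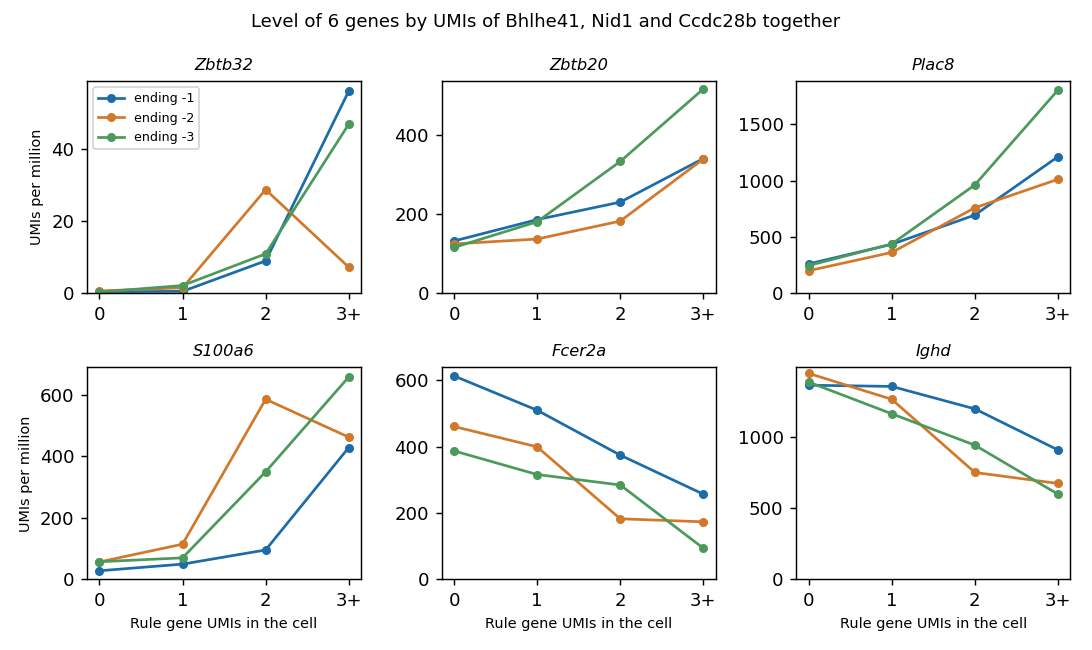
CPM (linear axes from 0) of 6 genes in B cells with 0, 1, 2 and 3 or more UMIs of Bhlhe41, Nid1 and Ccdc28b together, without monocyte marker cells, for each barcode ending. Plac8 and Zbtb20 are higher and Fcer2a and Ighd are lower at each step in every ending, whereas Zbtb32 and S100a6 are lower at 3 or more than at 2 in ending -2.

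Around the threshold, cells just inside and just outside the rule differed in degree. Cells with exactly 1 rule UMI (outside) had Plac8 at 434, 362 and 437 CPM, and cells with exactly 2 (inside) had 694, 758 and 962 CPM. Cells with none had 260, 199 and 245 CPM, and cells with 3 or more had 1212, 1012 and 1805 CPM. Zbtb20 went from 132, 125 and 116 CPM without a rule UMI through 186, 137 and 181 and then 230, 182 and 333 to 341, 340 and 517 CPM. Fcer2a fell in the same order, from 612, 460 and 387 to 257, 173 and 94.0 CPM. Median depth also moved with the number of rule UMIs, from 3909, 3736.5 and 3556 UMIs without any to 7515.5, 7416.5 and 6656 with 3 or more, and its part in these levels was not tested.

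Growth and signalling genes moved singly. Ccnd2, cyclin D2, was 2.69, 4.98 and 3.78 times as high (2.03, 1.73 and 2.35 after weighting) and was the 1 higher gene of 12 measured in the cell cycle list, against 0.874% higher over all measured genes, to which the list counts that follow also compare. Myc was the 1 higher gene of 18 in the list of Myc-responsive growth genes. In the list of B cell receptor signalling, 1 of 28 was higher, the transcription factor Nfatc1 (1.77, 1.71 and 2.52 times). Bcl2l11, which encodes the death-promoting protein BIM, was 2.42, 2.02 and 1.71 times as high, and was at 1.33 in ending -3 after weighting. Marcks, a membrane-bound substrate of protein kinase C, was 1.70, 1.63 and 2.21 times as high, and at 1.04 in ending -2 after weighting. Lipa, lysosomal acid lipase, was the other higher gene of 14 in the lipid list beside Apoe, and was at 1.38 and 1.44 in endings -1 and -3 after weighting.

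Other highly ranked genes outside the lists were Rilpl2 (3.72, 4.24 and 5.71 times the other B cells), Tmem154 (3.49, 4.95 and 5.05), Emb (3.19, 9.11 and 4.52), Mcoln2 (2.67, 3.14 and 3.30) and Phgdh (1.89, 2.19 and 1.87). Emb encodes embigin, a membrane glycoprotein, Mcoln2 an endolysosomal channel, and Phgdh the first enzyme of serine synthesis. All 5 passed the fold after weighting for depth too, Rilpl2 at 3.21, 2.27 and 4.73 and Tmem154 at 3.48, 2.68 and 3.65. Of the 20 highest-ranked genes 16 passed the fold and 14 did so after weighting. Sub1, Tcf4, Gimap4 and Nap1l1 did not pass, with ratios of 1.40 to 1.76.

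In the marginal zone list 3 of 9 measured genes were higher (Marcks, Plac8 and Mzb1), in the transitional list 1 of 7 (Bcl2l11), and in the plasma cell list 1 of 16 (Mzb1). None of 8 receptors for BAFF, APRIL and related factors was called. Weighting for depth added lower calls for Cd1d1 of the marginal zone list, Sox4 of the transitional list, and Usp18 and Rsad2 of the interferon-stimulated list. With that weighting 1.70% of all measured genes were lower.

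Among 6 measured cytokines and 15 cytokine receptors, Il21r, the interleukin 21 receptor, was lower (0.585, 0.578 and 0.598), and so were Lta, lymphotoxin alpha, on 5, 1 and 2 UMIs, and the chemokine Ccl5. Il5ra was the 1 higher gene of these lists. Il21r reached 0.700 in ending -2 after weighting. Interferon-stimulated Ifit1 and Ifit3 were the 2 lower genes of 19 in their list. Over all measured genes 1.63% were lower, to which the lower genes of the cytokine and receptor lists also compare. None of 10 measured genes for MHC class II was called, although their median log2 ratio was -0.11, -0.34 and -0.40. Cd74, the invariant chain, was at 0.867, 0.827 and 0.779 times the other B cells. No gene of the lists of Toll-like receptors (9 measured), memory and atypical B cells (6 measured), or trafficking and adhesion (20 measured) was called. With 0.874% higher and 1.63% lower over all measured genes, no call in lists this short says little.

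Clock and glucocorticoid genes bear on the study's subject. None of 8 measured clock genes and none of 11 measured genes of the glucocorticoid list was called without weighting. Over all measured genes 0.874% were higher and 1.63% lower, so no call in lists this short says little about the set. Arntl, which encodes the clock activator BMAL1, was at 0.547, 0.633 and 0.737 times the other B cells on 7, 3 and 6 UMIs, with intervals that reached above 1 in every ending. After weighting for depth it was at 0.502, 0.475 and 0.628 times and was called lower, where 1.70% of all measured genes were lower. The clock list's median log2 ratio was -0.21, -0.24 and -0.02. Per1 had 5, 0 and 2 UMIs in the set, so that at this depth a difference was not detectable. Clock, on 13, 4 and 13 UMIs, was at 0.841, 0.701 and 1.25 times the other B cells. Tsc22d3, the glucocorticoid-induced leucine zipper protein, stood at 267, 717 and 652 CPM in the set and at 283, 836 and 712 CPM in the other B cells. It was lowest in ending -1 in both, and the ratios within an ending were 0.942, 0.858 and 0.916. Nr3c1, the glucocorticoid receptor, was at 1.03, 0.986 and 0.607 times the other B cells.

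The lowest-ranked genes included platelet genes, whose ratios moved with depth to differing degrees. Pf4, platelet factor 4, stood at 1210.5, 453 and 634 CPM in the set against 1975, 883 and 1094 CPM, with ratios of 0.613, 0.513 and 0.580. After weighting for depth the ratios were 0.921, 0.936 and 0.821. Ppbp, another platelet gene, was at 0.562, 0.323 and 0.386 times the other B cells. It was still at 0.813, 0.531 and 0.514 after weighting, and Itga2b was then at 0.902, 0.330 and 0.718. Ctla2a (0.646, 0.656 and 0.600) was at 0.998, 1.19 and 0.913 after weighting, and Gng11 (0.615, 0.421 and 0.646) at 0.938, 0.841 and 0.932. Of the 12 lowest-ranked genes 8 passed the fold, and 2 did so after weighting, Fcer2a and Rflnb. Rflnb, a filamin-binding protein, was at 0.362, 0.136 and 0.258 times the other B cells and at 0.370, 0.156 and 0.285 after weighting, on 10, 2 and 6 UMIs in the set. The 12 platelet and red cell genes stood together at 3709, 1699 and 5592 CPM in the set and at 8782, 9757 and 9612 CPM in the other B cells. Haemoglobin genes in that sum were also lower in the set than in the other B cells weighted for depth. Hba-a2 was then at 0.0265, 0.00404 and 0.194 times the other B cells, and Hbb-bs at 0.0311, 0.00699 and 0.346 times. The weighting itself raised the level it was compared with in ending -2. Hba-a2 alone stood there at 11237 CPM in the weighted other B cells, above the unweighted sum of the 12 genes.

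RNA of other cells was present at differing levels. The 12 listed T cell markers stood at 37.2, 24.7 and 43.0 CPM in the set, against 66.3, 32.4 and 56.8 CPM, with Cd4 and Cd8a at 0. That sum includes the Cd3 genes, which the B cell rule limits. The 10 NK cell markers stood at 25.9, 8.25 and 7.58 CPM, against 114.7, 17.9 and 102.7 CPM. The sum of the 12 neutrophil markers, given above beside S100a6, includes S100a8 and S100a9, which the rule also limits. The 14 monocyte and dendritic markers stood at 225, 219 and 243 CPM, against 364, 242 and 269 CPM, once the marker cells were left out. That sum includes the 10 markers whose UMIs chose the cells left out, so this choice limits its level on both sides. The part of RNA of other cells in the gene ratios, other than that of the monocyte marker cells, was not tested.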

How the data were processed

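The members and gene lists were chosen with earlier results of these data known. The authors deposited 1 matrix of raw UMI counts (31053 genes), written by Cell Ranger 6.0.2 per the file headers. Tools in the submitters' processing notes are Cell Ranger 4.0.0, Seurat 3.0 and Trimmomatic 0.39, with build GRCm38, so headers and notes give different Cell Ranger versions. The method of cell calling is not given in the labels. Counts were summed over the set and over the other B cells of each barcode ending and divided by the total (CPM). Intervals are exact (Clopper-Pearson for shares, conditional binomial for ratios) at 95% and cover counting error only. Doublets were scored with Scrublet in scanpy 1.11.5. The automatic threshold marked 7 of 7122 cells in ending -1, so it was not used, doublets were kept, and an alternative left out the highest 6% of scores in each ending. Clusters were made from 2000 variable genes, 30 components and 15 neighbours (leidenalg 0.10.2). TMM factors came from edgeR 4.0.16. Genes were named from 27 lists and from the 20 measured genes with the highest and 12 with the lowest interval bound in their weakest ending, leaving out rule, haemoglobin, mitochondrial, ribosomal, receptor segment, Xist and Y genes; the same ranking was repeated without the monocyte marker cells. Alternatives covered the rule, the cell filters, depth, scaling, the count limit, the fold and each ending left out.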

Additional observations from a re-analysis of the deposited data

How the results depend on the processing

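No paired analysis was possible because no barcode ending is tied to a group and each group has 1 library. Of 195 higher and 109 lower genes, at least 3 rule UMIs left 62 and 179, and at least 2 rule genes 64 and 178. Without monocyte marker cells 67 were higher, with weighting for depth 46, and with both 42. A limit of 30 expected UMIs gave 86 higher and 54 lower, a limit of 3 gave 361 and 230, and a fold of 2 gave 86 and 20. TMM gave 183 lower. Without the highest 6% of doublet scores 137 were higher and 117 lower, with 8 B-1 genes higher and 3 follicular genes lower. With each ending left out in turn, 200 to 254 were higher and 207 to 318 lower; the 318, and 7 follicular genes lower in place of 3, came without ending -1. B-1 genes higher numbered 8, against 2 with 500 genes and 5% mitochondrial UMIs (22 cells in the set), 5 with weighting for depth, 5 with TMM, 4 at 30 expected UMIs and 3 at a fold of 2. Follicular genes lower were 8 under the stricter cell filter, 1 with both weighting and monocyte marker cells left out, and 1 at a fold of 2. Leaving out an ending gave 8 to 9 B-1 genes higher and 3 to 7 follicular genes lower. Shares of B cells in endings -1, -2 and -3 were 0.837%, 1.27% and 1.59% at 3 rule UMIs, 1.02%, 1.27% and 1.99% with 2 rule genes, and 0.476%, 1.03% and 0.673% thinned; the stricter cell filter gave 2.44%, 4.11% and 1.93%. Resolution 0.5 put 58.1% of the set in 1 cluster. Median log2 ratios reversed for Lyz2 (-2.21 with 2 rule genes, -0.41 without monocyte marker cells, -0.31 weighted, -0.016 with both), Ccr2 (-3.72 with 2 rule genes, -0.17 weighted), Mzb1 (-1.16) and Ighm (-0.76) under the stricter cell filter, and Cd9 (0.018 with both). Under that filter the median ratio of Myc was 0 and has no log2 value. For these the cause was not tested. Of 349 values for 22 genes, 310 moved within the main spread and 30 beyond it without reversing. Depth limits the genes with few UMIs in the set most, among them Cd5, Ctla4 and Per1.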
